A study of Mus musculus with 20 samples.

Results

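The miR-181 family was followed through chemically induced skin cancer in the mouse, across 20 small RNA libraries of skin. The mice were of the inbred albino strain FVB/N. The libraries form 4 groups of 5: healthy skin that received acetone (the solvent), and hyperplastic skin, papillomas and cutaneous squamous cell carcinomas (cSCC), all 3 treated with DMBA/PMA, the mutagen that starts these tumours with the phorbol ester that promotes them. Hyperplastic skin is thickened skin without a tumour, a papilloma is a benign tumour and a cSCC is a malignant one. All groups share the strain and the tissue. Only the healthy group escaped DMBA/PMA, so wherever it is the comparison, the effect of treatment and that of the lesion cannot be told apart. Whether each library stands for a separate mouse is not stated in the labels, so the spread given here is that between these samples, which may be partly technical. Age and time of sampling are not stated either.

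The family members were chosen by name, as every mature miRNA called miR-181a, miR-181b, miR-181c or miR-181d, of any arm or genomic copy, and 10 of the 1137 mature miRNAs in the deposited count table met this rule. The family, and its division into loci, were proposed with the measured levels of these libraries known. Its levels and fold changes are therefore given as a description, without p-values. Of the 10 members, 6 come from the a/b loci and 4 from the c/d locus. The low-count filter passed 9, and miR-181b-2-3p, with 1 to 29 reads per library, did not pass.

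MicroRNAs guide repressor complexes to messenger RNAs, and bases 2 to 8 of the mature strand, the seed, largely decide which messages are bound. Each hairpin precursor yields a strand from its 5′ arm and a strand from its 3′ arm, of which usually 1 accumulates. The miR-181 family is best known from lymphocytes, where miR-181a sets the strength of T cell receptor signalling by lowering phosphatases, and miR-181b dampens NF-κB signalling in endothelium. In mammals its genes are paired, an a copy beside a b copy at separate places in the genome, and a c copy beside a d copy.

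The mature sequences show what the family shares and where the loci part. The 4 strands of the 5p arm are printed 5′ to 3′ from RefSeq (GRCm38.p6) with the seed in capitals.
mmu-miR-181a-5p: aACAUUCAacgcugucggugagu
mmu-miR-181b-5p: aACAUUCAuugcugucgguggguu
mmu-miR-181c-5p: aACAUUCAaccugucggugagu
mmu-miR-181d-5p: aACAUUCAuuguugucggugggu
They carried the same seed, ACAUUCA, and no other mature miRNA of the RefSeq table carried it. Outside the seed they differed little: counting from 1 at the 5′ end, miR-181a-5p and miR-181b-5p differed by A9U, C10U and A21G over their shared length. Between the loci the resemblance was closer still. miR-181c-5p is miR-181a-5p with 1 base missing, an edit distance of 1, and miR-181b-5p and miR-181d-5p differed by C12U over their shared length. How the authors assigned reads that match more than 1 member is not given in the sources used here, so the level of each 5p strand carries that uncertainty.

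The 3p strands told copies apart that the 5p strands cannot. They are printed in the same way for the 3 hairpins whose 3p reads were numerous enough to follow.
mmu-miR-181a-1-3p: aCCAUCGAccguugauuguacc
mmu-miR-181a-2-3p: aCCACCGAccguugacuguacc
mmu-miR-181c-3p: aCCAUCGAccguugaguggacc
miR-181a-1-3p differed from miR-181a-2-3p by U5C and U16C, the first of which lies in the seed. miR-181c-3p kept the seed of miR-181a-1-3p, CCAUCGA, and differed from it by U16G and U19G. With so few differing bases, the unknown assignment of shared reads leaves these 3p levels uncertain too. The 5p strand of miR-181a is identical between its chromosome 1 and chromosome 2 copies, as is that of miR-181b, so the count table holds 1 entry for each and only the 3p strands show which copy was read.

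In the coordinates of the deposited table (mm9), miR-181c-5p lay at chr8:86702822-86702845 and miR-181d-5p at chr8:86702657-86702681, with 165 bases between their starts. Both hairpins lie in an intron of Nanos3, a germ cell RNA-binding protein gene, on its own strand (GENCODE M21, GRCm38). miR-181a-2-3p lay at chr2:38708307-38708330, and its hairpin and that of miR-181b-2 lie in an intron of Nr6a1, an orphan nuclear receptor gene, on the opposite strand. miR-181a-1-3p lay at chr1:139863084-139863107, 142 bases from the start given for miR-181b-5p on that chromosome, with both hairpins in an intron of the noncoding transcript Gm4258 and miR-181b-1 also in an exon of the lincRNA A430106G13Rik. The c/d locus stands 29639 bases from miR-23a-3p, the nearest member of the miR-23a, miR-27a and miR-24-2 cluster.

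The libraries held 1060615 to 6904298 mature miRNA reads. The family took 0.337% to 0.663% of them in healthy skin, 0.463% to 0.807% in hyperplastic skin, 0.298% to 0.499% in papillomas and 0.0937% to 0.311% in cSCC. Papillomas were the shallowest group, with a mean of 1833000 ± 615000 reads. Healthy skin had 4023000 ± 882000, hyperplastic skin 4506000 ± 1460000 and cSCC 2382000 ± 530000 reads (SD, n = 5 per group). Levels are CPM, counts scaled to a common total of mature miRNA reads after TMM normalization, which aligns libraries on the assumption that most miRNAs do not change. Factors computed from the 293 miRNAs with a mean of at least 50 CPM, in place of all 850 tested, shifted the log2 fold changes of single miRNAs. The median shift was 0.664 for papilloma and 0.713 for cSCC against healthy skin. It was 0.575 and 0.623 against hyperplastic skin, 0.0468 for cSCC against papilloma and 0.0886 for hyperplastic against healthy skin. Fold changes of the family members called in tumours against skin are therefore followed by their values under the second scaling. Overlap of levels between groups was judged on TMM-scaled CPM, and between tumours and skin it too can depend on the scaling. Ratios between members within a library, which no scaling can move, carry the comparison of the loci.

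Over the 20 libraries the strands ranged from abundant to nearly unread. miR-181a-5p averaged 3505 CPM and ranked 48 of 1137 miRNAs, miR-181c-5p averaged 524.9 CPM (rank 118), miR-181b-5p 381 CPM (rank 137) and miR-181d-5p 65.62 CPM (rank 273). Among the 3p strands miR-181c-3p averaged 113.4 CPM, miR-181a-1-3p 96.03 CPM and miR-181a-2-3p 23.39 CPM. miR-181b-1-3p, miR-181b-2-3p and miR-181d-3p averaged 3.921, 2.317 and 2.094 CPM. The mature strands are of nearly equal length, 21 to 24 bases, so these levels need no correction for length, but ligation can favour some ends over others.

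miR-181a-5p, the dominant member, had 4347, 5916, 4681, 3982 and 5136 CPM in healthy skin and 3900, 4923, 6222, 6309 and 4122 CPM in hyperplastic skin. It had 2399, 3380, 1576, 2475 and 1673 CPM in papillomas and 2289, 584.2, 1773, 2451 and 1964 CPM in cSCC. On this scaling every papilloma and every cSCC library lay below every healthy and every hyperplastic one, and papillomas and cSCC overlapped. As a plain share of miRNA reads, however, papilloma 3 (8288 of 2168434) stood above healthy 5 (12493 of 4921719). The lowest of the 20 values, 584.2 CPM, came from cSCC 2, which also held the lowest share of family reads, 0.0937%.

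miR-181b-5p, encoded beside miR-181a at both a/b loci, had 352.7, 570.1, 530.4, 355.1 and 435.4 CPM in healthy skin and 652.5, 582.1, 712.2, 510.1 and 352.4 CPM in hyperplastic skin. It had 249.7, 362.1, 169.2, 304.4 and 182 CPM in papillomas and 401.1, 90.81, 230.5, 389.1 and 188.6 CPM in cSCC. The tumour libraries were lower on average but overlapped both skin groups. The means of the tumour groups, 260 ± 133 CPM in cSCC and 253.5 ± 81.6 CPM in papillomas (SD, n = 5 each), differed by less than the spread.

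miR-181c-5p had 1286, 927.4, 662.4, 636.2 and 873.2 CPM in healthy skin and a narrow 728.3, 794, 798.4, 839.2 and 852.1 CPM in hyperplastic skin. It had 352.4, 404.9, 283.9, 313.1 and 252.2 CPM in papillomas and 125.6, 51.03, 77.33, 110.9 and 130.5 CPM in cSCC. On this scaling the groups formed 3 separate levels, with no overlap between the levels. Healthy and hyperplastic skin stood together, papillomas below them and cSCC below papillomas. As a plain share of miRNA reads, however, papilloma 3 (993 of 2168434) stood above healthy 5 (1996 of 4921719). The cSCC values rest on 127 to 337 reads per library.

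miR-181d-5p had 125.6, 127.4, 73.37, 40.48 and 115.6 CPM in healthy skin and 94.9, 96.6, 105.6, 94.42 and 80.89 CPM in hyperplastic skin. It had 66.94, 60.76, 37.85, 52.24 and 55.55 CPM in papillomas and 23.86, 11.25, 10.94, 20.57 and 17.59 CPM in cSCC. Its cSCC libraries, with 28 to 64 reads each, lay below all others. On this scaling papillomas lay below hyperplastic skin and overlapped healthy skin through healthy 5 at 40.48 CPM. By plain share of miRNA reads, however, papilloma 6 (98 of 1060615) stood above hyperplastic 8 (253 of 3837585).

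**Figure D1:**
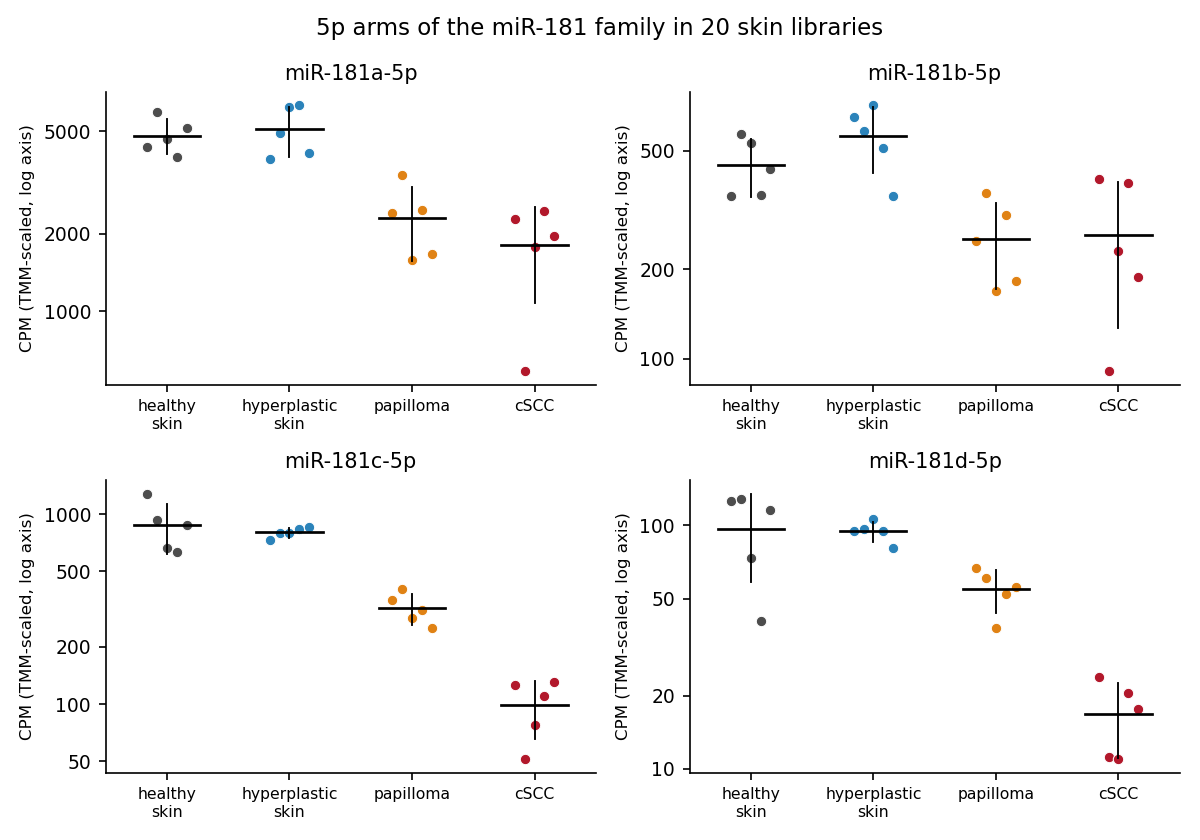
Levels of the 4 miR-181 5p strands (CPM after TMM scaling, log axes that differ between panels) in each of the 20 libraries, by group in order of lesion, with points for libraries, horizontal bars for means and vertical bars for 1 SD. miR-181c-5p and miR-181d-5p drop again between papilloma and cSCC, to means of 99.07 and 16.84 CPM in cSCC against 321.3 and 54.67 CPM in papillomas, whereas miR-181a-5p and miR-181b-5p overlap between these groups.

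The 3p strands gave a second reading of the same hairpins from other sequences. miR-181c-3p had 180, 135.8, 149.5, 133.6 and 199.1 CPM in healthy skin and 152.9, 224.7, 219, 160 and 138.4 CPM in hyperplastic skin. It had 105.7, 101.5, 42.44, 72.79 and 64.62 CPM in papillomas and 48.09, 14.87, 31.31, 45.17 and 48.86 CPM in cSCC. On this scaling the tumours lay below both skin groups, and papilloma and cSCC overlapped only through papilloma 4, at 42.44 CPM. By plain share of miRNA reads, however, papilloma 3 (249 of 2168434) stood above healthy 5 (419 of 4921719) and hyperplastic 8 (433 of 3837585).

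miR-181a-1-3p, from chromosome 1, averaged 126.1 ± 42.2 CPM in healthy skin, 111.8 ± 20.1 in hyperplastic skin, 74.26 ± 21.4 in papillomas and 71.97 ± 47.8 in cSCC (SD, n = 5 each). The cSCC values ran from 12.86 CPM in cSCC 2 to 138.2 CPM in cSCC 4, and all groups overlapped. miR-181a-2-3p, from chromosome 2, averaged 37.97 ± 9.43, 28.93 ± 18.1, 12.84 ± 7.24 and 13.84 ± 6.78 CPM in the same order of groups. On this scaling its tumour libraries lay below healthy skin but overlapped hyperplastic skin, and papillomas held only 13 to 43 reads of it. By plain share of miRNA reads, however, papilloma 6 (43 of 1060615) stood above healthy 3 (87 of 3932051).

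The remaining 3p strands were too sparse to compare: miR-181b-1-3p had 0 to 45 reads per library, miR-181b-2-3p 1 to 29 and miR-181d-3p 1 to 20. The 3p strands together amounted to a geometric mean of 5.25% of the 5p reads in healthy skin, 5.06% in hyperplastic skin, 5.95% in papillomas and 5.86% in cSCC. None of the 6 comparisons of this ratio passed the exact permutation test described with the locus ratios (smallest adjusted p = 0.385).

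**Figure D2:**
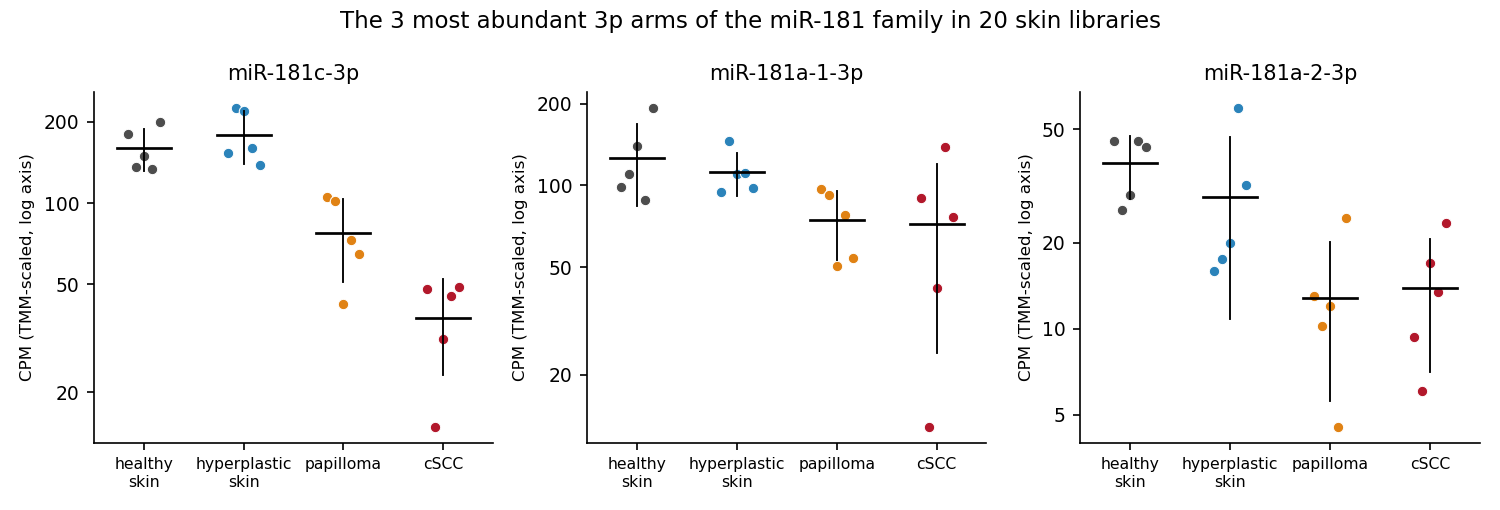
Levels of miR-181c-3p, miR-181a-1-3p and miR-181a-2-3p (CPM after TMM scaling, log axes that differ between panels) in each library, with points for libraries, horizontal bars for means and vertical bars for 1 SD. miR-181c-3p steps down in papillomas and again in cSCC, to means of 77.41 and 37.66 CPM, whereas miR-181a-1-3p spreads from 12.86 to 138.2 CPM within cSCC.

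Hyperplastic skin against healthy skin set DMBA/PMA-treated skin without a tumour against acetone-treated skin. By edgeR's quasi-likelihood test 0 of 9 members were called, against a background of 0.0% of the 850 miRNAs tested (75 had an unadjusted p under 0.05, 0 of them in the family, and DESeq2 also called 0, with 85). The log2 fold changes of hyperplastic over healthy skin were 0.08 ± 0.293 for miR-181a-5p, 0.32 ± 0.323 for miR-181b-5p, −0.13 ± 0.257 for miR-181c-5p and −0.03 ± 0.289 for miR-181d-5p (± SE). All 9 members overlapped between the groups.

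In papillomas against healthy skin 6 of the 9 members were called lower, a share to be read against 20.7% of all miRNAs tested, and none was called higher. The log2 fold change was −1.45 ± 0.262 for miR-181c-5p, −1.06 ± 0.296 for miR-181a-5p, −0.82 ± 0.325 for miR-181b-5p and −0.82 ± 0.293 for miR-181d-5p. For the 3p strands it was −1.58 ± 0.421 for miR-181a-2-3p, −1.04 ± 0.301 for miR-181c-3p and −0.76 ± 0.385 for miR-181a-1-3p, the last of which was not called. In 4 of the 9 members every papilloma lay below every healthy library, as in 14.7% of all miRNAs. The median over the 9 members was −0.823, against 0.403 over all miRNAs.

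That count depended on scaling. With factors from abundant miRNAs, 8.59% of all miRNAs were called lower and only miR-181c-5p of the family was, at −0.81 ± 0.23, while miR-181d-3p was called higher from a mean of 6.2 reads per papilloma library against 3.4 per healthy library. The values for miR-181a-5p, miR-181b-5p and miR-181d-5p became −0.45 ± 0.252, −0.22 ± 0.304 and −0.18 ± 0.29, and those for miR-181c-3p and miR-181a-2-3p −0.42 ± 0.275 and −0.84 ± 0.429, all still below 0 and none called. Under other alternatives, the call of miR-181d-5p also ended without healthy 2 or 3, with the replicate number as a block, with all small RNA features and with only the groups compared. That of miR-181b-5p ended without healthy 3 and with all small RNA features. miR-181a-1-3p became called with DESeq2, without the low-count filter and with library sizes without the 5 most abundant miRNAs.

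Against hyperplastic skin, which received the same agents, papillomas again had 6 of 9 members called lower (17.1% of all miRNAs), and 4 members had no overlap between groups (12.2% of all miRNAs). The log2 fold change was −1.32 ± 0.261 for miR-181c-5p, −1.15 ± 0.297 for miR-181a-5p, −1.15 ± 0.327 for miR-181b-5p and −0.79 ± 0.293 for miR-181d-5p. It was −1.21 ± 0.301 for miR-181c-3p, −1.19 ± 0.418 for miR-181a-2-3p and −0.59 ± 0.384 for miR-181a-1-3p, which was not called. With factors from abundant miRNAs miR-181c-5p (−0.76 ± 0.23) and miR-181c-3p (−0.68 ± 0.275) were called, among 5.65% of all miRNAs. miR-181a-5p (−0.60 ± 0.253), miR-181b-5p (−0.63 ± 0.305), miR-181d-5p (−0.23 ± 0.29) and miR-181a-2-3p (−0.505 ± 0.428) were then not called. Of 20 alternatives, scaling included, 10 ended the call of miR-181d-5p, among them leaving out papilloma 4 or hyperplastic 1, 5, 7 or 8. The call of miR-181a-2-3p ended in 8 of 19, among them without papilloma 4 or 5 or hyperplastic 7, and its value was −0.716 without hyperplastic 7. This comparison and the one with healthy skin share the papilloma libraries.

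In cSCC against healthy skin, too, 6 of 9 members were called lower (21.3% of all miRNAs), with the larger 5p fold changes at the c/d locus. The log2 fold change was −3.15 ± 0.28 for miR-181c-5p and −2.52 ± 0.313 for miR-181d-5p, which left 11.3% and 17.5% of the healthy level. For miR-181a-5p it was −1.41 ± 0.299 and for miR-181b-5p −0.79 ± 0.325, which left 37.7% and 58%. The 3p strands gave −2.08 ± 0.311 for miR-181c-3p, −1.46 ± 0.416 for miR-181a-2-3p and −0.81 ± 0.386 for miR-181a-1-3p, the last not called. Without cSCC 4, which held its highest cSCC level, miR-181a-1-3p was at −1.33 and called, and it was also called with DESeq2, with DESeq2's size factors, without the low-count filter and with library sizes without the 5 most abundant miRNAs. Every cSCC library lay below every healthy one in 5 of the 9 members, as in 16.7% of all miRNAs.

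Under the other scaling miR-181c-5p, miR-181c-3p and miR-181d-5p were still called lower and miR-181b-5p was not. With factors from abundant miRNAs, which called 12.0% of all miRNAs lower, miR-181c-5p was at −2.45 ± 0.242, miR-181d-5p at −1.83 ± 0.304, miR-181c-3p at −1.39 ± 0.281 and miR-181a-5p at −0.74 ± 0.253, all called lower. miR-181b-5p was at −0.14 ± 0.304 and miR-181a-2-3p at −0.74 ± 0.424, neither called. The call of miR-181b-5p ended in 11 of 20 alternatives, among them without healthy 2, 3 or 7 or cSCC 2 or 3. Its log2 fold change was −0.579 without cSCC 2, which ended the call, and −1.13 without cSCC 4, where the call held. The replicate block, at −0.897, ended it too. With factors from abundant miRNAs miR-181d-3p was called higher, from a mean of 5.4 reads in cSCC against 3.4 in healthy skin.

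Against hyperplastic skin cSCC had 6 of 9 members called lower (20.5% of all miRNAs, and 9.65% with factors from abundant miRNAs, under which 4 members were called lower), and 4 without overlap (15.6%). The log2 fold change was −3.02 ± 0.278 for miR-181c-5p, −2.49 ± 0.312 for miR-181d-5p, −2.25 ± 0.313 for miR-181c-3p, −1.49 ± 0.299 for miR-181a-5p and −1.11 ± 0.327 for miR-181b-5p. It was −1.07 ± 0.414 for miR-181a-2-3p and −0.64 ± 0.385 for miR-181a-1-3p, which was not called. With factors from abundant miRNAs miR-181c-5p was at −2.40 ± 0.241, miR-181d-5p at −1.88 ± 0.304, miR-181c-3p at −1.66 ± 0.283 and miR-181a-5p at −0.89 ± 0.254. miR-181b-5p (−0.548 ± 0.304) and miR-181a-2-3p (−0.40 ± 0.423) then lost their calls. Of 19 alternatives 9 ended the call of miR-181a-2-3p, among them leaving out cSCC 1, 2 or 3 or hyperplastic 7 or 8, and it was at −0.505 without hyperplastic 7. Without cSCC 4 miR-181a-1-3p was at −1.15 and called. This comparison shares its cSCC libraries with the one against healthy skin.

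The comparison of carcinoma with papilloma, both tumours from treated mice, separated the loci. In cSCC 3 of 9 members were called lower, where 4.71% of all miRNAs were (4.47% with factors from abundant miRNAs, with the same 3 members called), and all 3 came from the c/d locus. The log2 fold change was −1.70 ± 0.265 for miR-181c-5p and −1.70 ± 0.307 for miR-181d-5p, each leaving 30.8% of the papilloma level, and −1.04 ± 0.305 for miR-181c-3p, which left 48.6%. For the a/b loci it was −0.34 ± 0.293 for miR-181a-5p, 0.04 ± 0.323 for miR-181b-5p, −0.05 ± 0.385 for miR-181a-1-3p and 0.12 ± 0.427 for miR-181a-2-3p, none called. Total counts as library sizes shifted the fold changes of all miRNAs by a median of −0.295, and miR-181b-5p and miR-181a-2-3p turned to −0.29 and −0.23. miR-181c-5p and miR-181d-5p did not overlap between cSCC and papilloma libraries, 2 of 9 members against 4.12% of all miRNAs. The call of miR-181c-3p was lost in 11 of 20 alternatives, among them without papilloma 1, 3, 5 or 6 and without cSCC 2, 3 or 4, with a log2 fold change of −0.781 without cSCC 2. The calls of miR-181c-5p and miR-181d-5p were lost in 0 of 20.

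**Figure D3:**
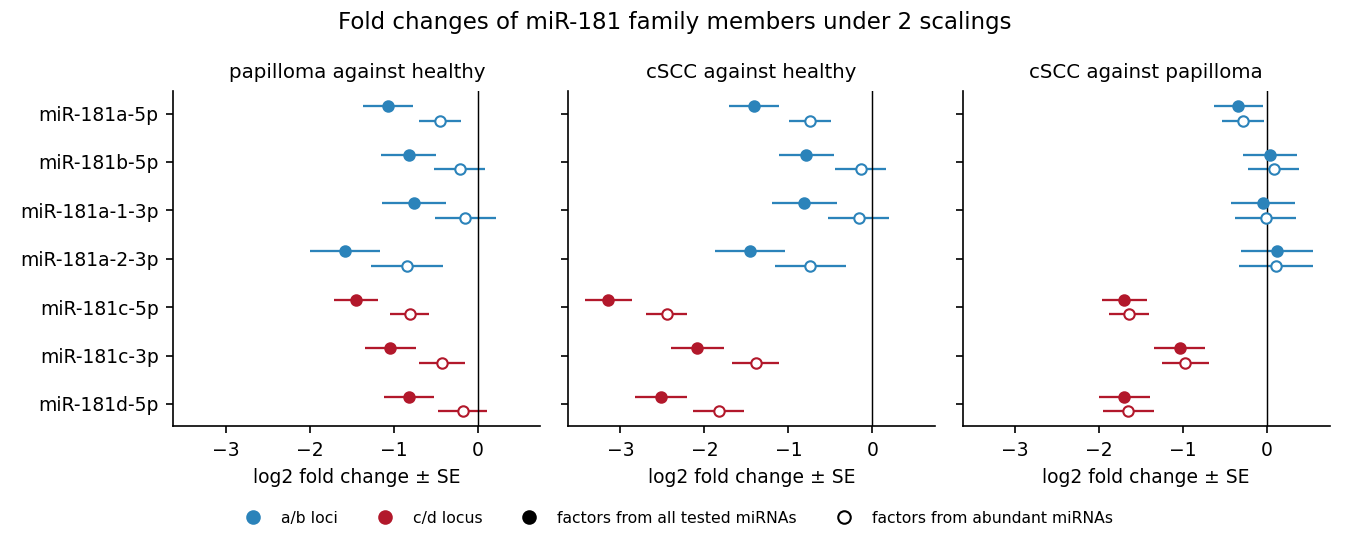
Log2 fold changes (points) with SE (bars) of 7 family members for papilloma against healthy skin, cSCC against healthy skin and cSCC against papilloma, in blue for the a/b loci and red for the c/d locus. Filled points use scaling factors from all tested miRNAs and open points factors from abundant miRNAs, which move the members toward 0 in the comparisons with healthy skin but leave cSCC against papilloma nearly in place, with miR-181c-5p at −1.70 and −1.64.

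Ratios within a library put the loci side by side without any scaling. The reads of miR-181c-5p and miR-181d-5p together amounted to 30.0%, 16.3%, 14.1%, 15.6% and 17.7% of those of miR-181a-5p and miR-181b-5p in healthy skin and 18.1%, 16.2%, 13.0%, 13.7% and 20.9% in hyperplastic skin. In papillomas they amounted to 15.8%, 12.5%, 18.4%, 13.1% and 16.6%, and in cSCC to 5.56%, 9.25%, 4.41%, 4.64% and 6.89%. Each cSCC library lay below each of the other 15, which overlapped among themselves.

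The log2 ratio averaged −2.47 ± 0.428 in healthy skin, −2.63 ± 0.28 in hyperplastic skin, −2.72 ± 0.237 in papillomas and −4.08 ± 0.44 in cSCC (SD, n = 5 each). It was lower by 1.35 ± 0.223 (SE) in cSCC than in papillomas, a 2.56-fold change of the ratio, and the difference was −1.61 ± 0.275 for cSCC against healthy skin and −1.45 ± 0.233 against hyperplastic skin. A two-sided exact permutation test of 5 against 5 libraries gave p = 0.00794, the smallest it can give, in each of these 3 comparisons (adjusted p = 0.0476 over the 30 tests of 5 ratios in 6 comparisons). Since the loci were proposed for comparison with these levels known, these p-values describe the libraries and are not independent evidence.

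The same log2 ratio differed by −0.25 ± 0.219 between papillomas and healthy skin (exact permutation test, adjusted p = 0.595) and by −0.16 ± 0.229 between hyperplastic and healthy skin (adjusted p = 0.685). For papillomas against hyperplastic skin it differed by −0.09 ± 0.164 (exact permutation test, adjusted p = 0.695). These differences were no larger than about their standard errors, and the ratios overlapped in all 3 comparisons. In the comparison of cSCC with healthy skin, leaving out healthy 2, the library with the highest ratio at 30.0%, gave −1.42 with an adjusted p of 0.0952 (exact permutation test). Leaving out any hyperplastic library gave adjusted p = 0.0794 for cSCC against hyperplastic skin, and leaving out any papilloma gave 0.068 to 0.0794 for cSCC against papilloma (exact permutation tests), while the differences stayed within −1.34 to −1.61 and −1.25 to −1.52.

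**Figure D4:**
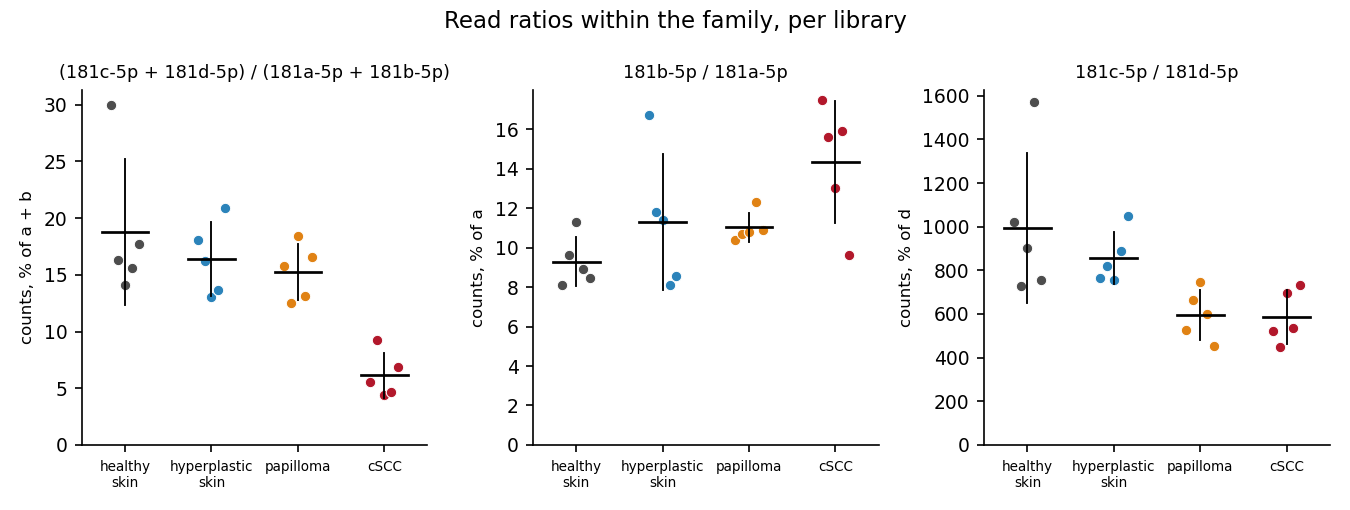
Read ratios between 5p strands within each library, as percent of the denominator named on each vertical axis, by group, with points for libraries, horizontal bars for means and vertical bars for 1 SD. In the left panel the 5 cSCC libraries lie between 4.41% and 9.25%, below the 12.5% to 30.0% of the other 15; in the right panel miR-181c-5p is 447% to 745% of miR-181d-5p in the tumours, against 755% to 1050% in hyperplastic skin.

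The ratio within the c/d locus was tested in the same way. miR-181c-5p was read 727% to 1570% as often as miR-181d-5p in healthy skin, 755% to 1050% in hyperplastic skin, 452% to 745% in papillomas and 447% to 733% in cSCC. The log2 ratio differed by −0.53 ± 0.153 for papillomas and by −0.56 ± 0.16 for cSCC against hyperplastic skin, without overlap (exact permutation test, adjusted p = 0.0476 each). Against healthy skin the differences were −0.70 ± 0.236 and −0.73 ± 0.24 (adjusted p = 0.068 each, exact permutation test), and cSCC and papillomas differed by −0.03 ± 0.184 (adjusted p = 0.944). In these libraries miR-181c-5p was thus lower relative to miR-181d-5p in both tumour groups than in hyperplastic skin. With 1 library left out the difference ranged over −0.437 to −0.617 for papillomas, with the adjusted p above 0.05 in each of the 10 cases, and over −0.468 to −0.646 for cSCC, with it above 0.05 in 5 cases. The sign of the difference held in each case. The adjusted p of 0.0476 rested on 0.00794, the smallest p this exact permutation test can give, which 5 of the 30 tests reached. A change in that p, or in how many tests reach it, can move the adjusted p over 0.05. Crossing the threshold therefore cannot show that a single library carries the difference.

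miR-181b-5p was read 8.12% to 11.3% as often as miR-181a-5p in healthy skin, 8.09% to 16.7% in hyperplastic skin, 10.4% to 12.3% in papillomas and 9.62% to 17.5% in cSCC. Of its comparisons the largest difference in log2 ratio was 0.60 ± 0.175 for cSCC against healthy skin (exact permutation test, p = 0.0238, adjusted p = 0.0893), so none passed. The ratio of miR-181a-1-3p to miR-181a-2-3p, which sets the chromosome 1 copy against the chromosome 2 copy, had mean log2 values of 1.71 ± 0.62 in healthy skin, 2.12 ± 0.852 in hyperplastic skin, 2.65 ± 1.11 in papillomas and 2.13 ± 1.09 in cSCC. None of its 6 comparisons passed either (smallest adjusted p = 0.385, exact permutation test).

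Since the 4 strands of the 5p arm share a seed, their levels were also summed. The summed 5p level was 6235 ± 922 CPM in healthy skin, 6554 ± 1210 CPM in hyperplastic skin, 2930 ± 871 CPM in papillomas and 2188 ± 890 CPM in cSCC (SD, n = 5 each). miR-181a-5p made up 77.2%, 77.3%, 78.17% and 82.49% of it in the same order, and the c/d strands together 15.61%, 14.01%, 13.23% and 5.758%. miR-181a-5p thus made up most of the sum in every group, and the c/d strands were a minor portion of it before and after the step to cSCC.

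The c/d locus was set beside its neighbours on chromosome 8, the miR-23a, miR-27a and miR-24-2 cluster, of which 6 strands were tested. In cSCC against papilloma 0 of 6 were called by edgeR, against 11.5% of all miRNAs called either way. Their log2 fold changes were −0.38 for miR-23a-3p, −0.36 for miR-27a-3p, −0.45 for miR-24-3p, −0.39 for miR-24-2-5p, −0.37 for miR-23a-5p and 0.76 for miR-27a-5p. These compare with −1.70 for miR-181c-5p and for miR-181d-5p. In cSCC against healthy skin 4 of the 6 were called lower (21.3% of all miRNAs), at −1.07 for miR-23a-3p, −1.24 for miR-27a-3p, −1.06 for miR-24-3p and −1.32 for miR-24-2-5p. These values use factors from all tested miRNAs. Factors from abundant miRNAs raised fold changes in this comparison by a median of 0.713, so these 4 calls may depend on the scaling. miR-24-3p also has a copy outside this cluster, so its reads need not come from chromosome 8.

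How alike the strands ran over the 20 libraries is described by Spearman's rho of log2 CPM. It was 0.946 for miR-181c-5p with miR-181d-5p, 0.868 for miR-181a-5p with miR-181c-5p, 0.826 for miR-181a-5p with miR-181b-5p and 0.598 for miR-181b-5p with miR-181c-5p. Of 288 miRNAs outside the family with a mean of at least 50 CPM, the most like miR-181c-5p were miR-338-3p (0.953), miR-101b-3p (0.949) and let-7g-3p (0.94). For miR-181d-5p they were miR-324-5p (0.907), miR-30e-5p (0.872) and let-7g-3p (0.869). For miR-181a-5p they were miR-195-5p (0.898), let-7i-5p (0.892) and miR-107-3p (0.886), and for miR-181b-5p miR-10a-5p (0.844), miR-872-5p (0.782) and miR-301a-3p (0.773). The libraries share their group differences and scaling, which enter every such value: within groups the Pearson correlation of miR-181c-5p was 0.397 with miR-338-3p, 0.731 with miR-181d-5p and 0.733 with miR-181a-5p, and that of miR-181a-5p with miR-181b-5p was 0.857.

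Levels of cell type markers differed between groups, and in bulk skin fewer cells of a type and less miRNA per cell cannot be told apart. Summed leukocyte markers (7 miRNAs, led by miR-223-3p) ran from 20850 to 38750 CPM in healthy skin, 12020 to 24910 in hyperplastic skin, 16650 to 61810 in papillomas and 49080 to 111800 in cSCC. Its most abundant marker, miR-223-3p, a myeloid miRNA, averaged 69550 ± 24100 CPM in cSCC and 18830 ± 4420 CPM in healthy skin (SD, n = 5 each). Of the 7 markers, 2 were called higher and 0 lower in cSCC against papilloma (6.82% and 4.71% of all miRNAs). In cSCC against healthy skin 1 was called higher and 2 lower (26.2% and 21.3% of all miRNAs). In papilloma against healthy skin 0 were called higher and 4 lower (24% and 20.7%). The markers called lower in cSCC against healthy skin were miR-150-5p, a marker of mature lymphocytes, at a log2 fold change of −2.15, and miR-146a-5p at −1.83. The 2 endothelial markers summed to 23600 to 43300 CPM, 14820 to 37110, 9858 to 15930 and 8807 to 19020 in the same order of groups, and both were called lower in each tumour group against healthy skin. The 6 keratinocyte markers summed to 155000 to 251100, 174100 to 221300, 107300 to 209300 and 74790 to 143500 CPM. Of these, 4 of 6 were called lower in cSCC and 2 of 6 in papilloma against healthy skin. Over all miRNAs 21.3% and 20.7% were called lower in these 2 comparisons. Marker calls, here and for muscle and connective tissue, use factors from all tested miRNAs. Factors from abundant miRNAs raised fold changes by a median of 0.713 and 0.664, so smaller marker changes, such as −0.69 for miR-205-5p in cSCC, may depend on the scaling. miR-203-3p, abundant in differentiating keratinocytes, was the keratinocyte marker called lower in cSCC against papilloma, at −1.59, beside −1.70 for miR-181c-5p and miR-181d-5p.

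Markers of muscle and connective tissue were lower in the tumours. The 4 striated muscle markers summed to 19310 to 77300 CPM in healthy skin, 16440 to 49870 in hyperplastic skin, 1753 to 9170 in papillomas and 1561 to 3615 in cSCC, and all 4 were called lower in each tumour group against healthy skin. The 2 smooth muscle markers ran over 53580 to 110300, 36770 to 83360, 16210 to 26050 and 13900 to 24300 CPM, both called lower in each tumour group against healthy skin. The 3 fibroblast markers ran over 19540 to 49310, 17850 to 43830, 11760 to 16960 and 5426 to 16740 CPM, with 2 of the 3 called lower in each. The 2 erythroid markers analysed here, of 3 listed, summed to 32.25 to 306.8 CPM over all groups, and miR-486-5p was called lower in cSCC against healthy skin, at −1.31. Between cSCC and papilloma 0 of 2 endothelial, 0 of 2 smooth muscle and 0 of 3 fibroblast markers were called lower by edgeR. For striated muscle 1 of 4 markers and for keratinocytes 1 of 6 were called lower, against 4.71% of all miRNAs. Against healthy skin 20.7% of all miRNAs were called lower in papillomas and 21.3% in cSCC. The part of these cell types in the levels of the miR-181 strands was not tested.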

How the data were processed

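The labels' protocols name Qiagen's miRNeasy mini kit for RNA, NEBNext reagents for SOLiD for the libraries and acrylamide gels for their size selection. The deposited table holds whole-number read counts per small RNA feature, not normalized by the authors; per the submitters' processing notes the build was mm9. For the aligner, counter, annotation, strand setting and treatment of reads matching several places the entry is "not given in the sources used here", so near-identical strands may share reads. The table lists 2127 features, none with fewer than 21 counts in total, and sample titles identified all columns, leaving 0 unused.

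The 1137 mature miRNAs were filtered with filterByExpr by group (at least 10 counts at the median depth in enough libraries and 15 in all), which left 850. They were scaled by TMM and tested with the quasi-likelihood F test of edgeR 4.0.16 (R 4.3.3, limma 3.58.1), two-sided, in 1 fit of all 20 libraries with a term per group. Benjamini-Hochberg adjustment ran over all tested miRNAs at 0.05, and SE was derived from F. Ratios within a library were formed from counts with 0.5 added, and differences of their means were tested by exact permutation and adjusted over 30 tests (Python 3.11.15, numpy 2.4.6). SE of a ratio difference covers the spread between libraries. Both procedures were tested on simulated data.

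Named miRNAs are all family members, the 3 miRNAs most like each main 5p strand, the neighbouring cluster and up to 2 markers per cell type list. Among leukocyte markers miR-146a-5p was named as well, for its call in cSCC against healthy skin. Members, lists, loci and tests were chosen with earlier results of these data known. Alternatives were DESeq2 1.42.0 and its size factors, factors from abundant miRNAs, total counts, library sizes without the 5 most abundant miRNAs, no filter, a filter of 50 CPM, all features, only the groups compared, the replicate number as a block, another pseudocount (5), equal weights for members in a ratio, and leaving out each library. Sequences came from RefSeq, in which all 10 members matched, and positions from the deposited table.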

Additional observations from a re-analysis of the deposited data

Results flagged for a closer look

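Of 60 sets of 5 values of the family (member levels and ratios by group), 2 held a library that stood apart by Dixon's criterion for 5 samples, a gap above 0.71 of the range, where chance flags about 1 set in 20. miR-181b-1-3p was at 13.42 CPM in cSCC 4, from 30 reads, while the other cSCC libraries had 4 to 9 reads. The log2 ratio of miR-181b-5p to miR-181a-5p was −3.02 in papilloma 5, or 12.3%, against 10.4% to 10.9% in the other papillomas, a group whose ratios lie close together.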

How the results depend on the processing

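The calls of miR-181c-5p and miR-181d-5p in cSCC against each other group, of miR-181c-5p in papillomas against each skin group and of miR-181a-5p in cSCC against each skin group held under every alternative run. In papillomas against healthy skin 6 members were called lower. Factors from abundant miRNAs and total counts each left 1 called lower and 1 called higher, with 73 and 74 of all 850 miRNAs called lower. A filter of 50 CPM, which keeps 6 members, left 1 called lower, with 60 of 293 miRNAs. Against hyperplastic skin 6 members were called lower, and 2, 3 and 1 under these 3 settings. Of all miRNAs 48 of 850, 58 of 850 and 41 of 293 were then called lower. Leaving out single libraries gave 4 to 6 members called in papillomas against healthy and against hyperplastic skin, 5 to 7 in cSCC against each of them and 2 to 3 in cSCC against papilloma. The log2 ratio of c/d to a/b reads ranged over −1.42 to −1.77 for cSCC against healthy skin, −1.34 to −1.61 against hyperplastic skin and −1.25 to −1.52 against papilloma when 1 library was left out, and the differences that had not passed ranged over −0.255 to 0.0218 (hyperplastic against healthy), −0.342 to −0.0694 (papilloma against healthy) and −0.168 to 0.00168 (papilloma against hyperplastic; 0.10 with equal weights for members).

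Same-numbered samples showed little common deviation from their group means (correlations of −0.167 to 0.226). With 2 to 4 pairs per comparison this cannot settle whether a number marks an animal, litter or day, which the labels do not say. With a replicate block of same-numbered pairs the ratio difference was −1.73 (3 pairs, exact sign-flip p = 0.25), −1.25 (2 pairs, 0.5) and −1.57 (4 pairs, 0.125) for cSCC against healthy skin, hyperplastic skin and papilloma, the smallest p these pairs allow; as an edgeR term the block called 5 members in papilloma against healthy skin, 5 in cSCC against healthy skin, 4 in papilloma and 5 in cSCC against hyperplastic skin and 2 in cSCC against papilloma, where 6, 6, 6, 6 and 3 were called without it.

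Values that were not called changed sign as follows, with ranges for leaving out 1 library. For cSCC against papilloma, miR-181b-5p was −0.29 with total counts and ranged over −0.113 to 0.312, and miR-181a-2-3p was −0.23 with total counts and ranged over −0.0691 to 0.659. miR-181a-1-3p was 0.0615 without the 5 most abundant miRNAs, 0.0333 without the filter and 0.00106 with only these groups, and ranged over −0.333 to 0.286. The ratio of miR-181b-5p to miR-181a-5p in papillomas against hyperplastic skin was −0.29 in the pairs (−0.101 to 0.161). The ratio of miR-181c-5p to miR-181d-5p ranged over −0.265 to 0.0118 for hyperplastic against healthy skin, and for cSCC against papilloma was 0.0699 in the pairs (−0.122 to 0.0641). The ratio of miR-181a-1-3p to miR-181a-2-3p for cSCC against hyperplastic skin was −0.0771 with a pseudocount of 5 and −0.65 in the pairs (−0.288 to 0.281), and for cSCC against papilloma 0.0967 in the pairs. The 3p to 5p ratio was 0.0939 with equal weights for hyperplastic against healthy skin (−0.185 to 0.0325), −0.0692 in the pairs for cSCC against hyperplastic skin, and 0.785 with equal weights for cSCC against papilloma (−0.0976 to 0.063). The causes were not tested. Low read numbers limit miR-181d-5p in cSCC (28 to 64 reads per library), miR-181a-2-3p in tumours (13 to 48) and the sparser 3p strands. Among the calls that the block ended were those of miR-181d-5p in papillomas, at −0.834 against healthy and −0.84 against hyperplastic skin.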
